A study of Mus musculus with 4 samples.

Results

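The integrin genes and the genes of the adhesion plaque that ties integrins to actin were followed in cultured group 2 innate lymphoid cells (ILC2) with and without Ets1. ILC2 are tissue lymphocytes that lack rearranged antigen receptors and make type 2 cytokines. The members were a named list of 33 genes, with 14 integrin alpha chains, 8 beta chains and 11 plaque proteins. Of these, 32 had a probe set with 1 gene symbol, among 18194 genes with such a probe set, and each was represented by its brightest one. Ptk2 was not analysed here. The mean of the 4 arrays had to reach 97.4 intensity units, the median of all probe sets, for a gene to be tested. In all, 28 members reached it, 12 alpha chains, 6 beta chains and 10 plaque proteins. Itga1 (94.7 intensity units), Itgam (93.1), Itgb6 (68.3) and Itgb8 (61.1) lay under that limit, and Itga9 (105.6) and Itga7 (106.1) were the members closest above it.

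The study compared 2 arrays of littermate control mice with 2 arrays of mice in which Ets1, the gene of an ETS family transcription factor, was deleted. Both groups were C57BL/6, and the cells of both received IL-7 and IL-33 during 2 weeks of culture on the stromal line OP9-DL1, made to carry a ligand of Notch, before ICOS-positive cells were taken. The labels do not say which allele was used, in which cells it was deleted, how old the mice were or whether animals were pooled. The comparison of Ets1-deleted with control arrays addresses which genes differ in level in these cultured cells without Ets1. Whether a difference arose in development, in culture or through the mix of cells was not tested. A difference is a log2 difference, Ets1-deleted minus control, ± SE from limma, and a gene rose or fell where its p, adjusted over all 10873 tested genes, was under 0.05. The labels do not state separate animals or cultures for the arrays of a group, so a p-value measures only the spread between them, which may be technical.

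Ets1 itself stood at 1272 and 1231 intensity units in the controls and at 138.1 and 180.2 in the Ets1-deleted arrays. Whether its probe sets cover the deleted stretch was not examined. All 15 genes of the ILC2 list that were on the array were bright enough to test. Of these, 12 changed, 7 higher and 5 lower (80%, where 26.7% of all tested genes rose or fell). Gata3 and Il7r, which ILC2 need to develop, differed by 0.08 ± 0.11 and 0.05 ± 0.11. Csf2 (2.79), Arg1 (1.56), Rora (1.29), Il17rb (0.93), Il5 (0.83), Il2ra (0.81) and Il13 (0.69) rose. Klrg1 (-1.60), Hpgds (-1.30), Nmur1 (-0.68), Ptgdr2 (-0.45) and Icos (-0.38) fell. Array medians lay between 96.5 and 97.7 intensity units, and values come from 2 arrays a group throughout, which limits the precision.

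Integrins are receptors made of 1 alpha and 1 beta chain that bind matrix proteins or proteins on other cells. Talin and kindlin bind the tail of the beta chain and switch the receptor on, and vinculin, alpha-actinin, paxillin and zyxin then link it to actin filaments. In lymphocytes, integrins hold cells on vessel walls, on stroma and in epithelia, and resident lymphocytes of barrier tissues are known for the chains encoded by Itgae and Itgb7.

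Members moved in both directions. Of the 28 tested, 9 rose, 5 fell and 14 did not pass. Among all tested genes 26.7% were called, with 13.9% higher and 12.8% lower. The median difference over the tested members was 0.01, and -0.0037 over all tested genes. At 2-fold or more, 5 members passed, against 4.64% of all tested genes. The groups did not overlap in 19 of the 28, where the share was 62.6% among all tested genes. Itga6 and Itga9 passed the intensity limit only through their Ets1-deleted values and Itga7 only through its control values, so these counts describe the tested members and support nothing by themselves.

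**Figure D1:**
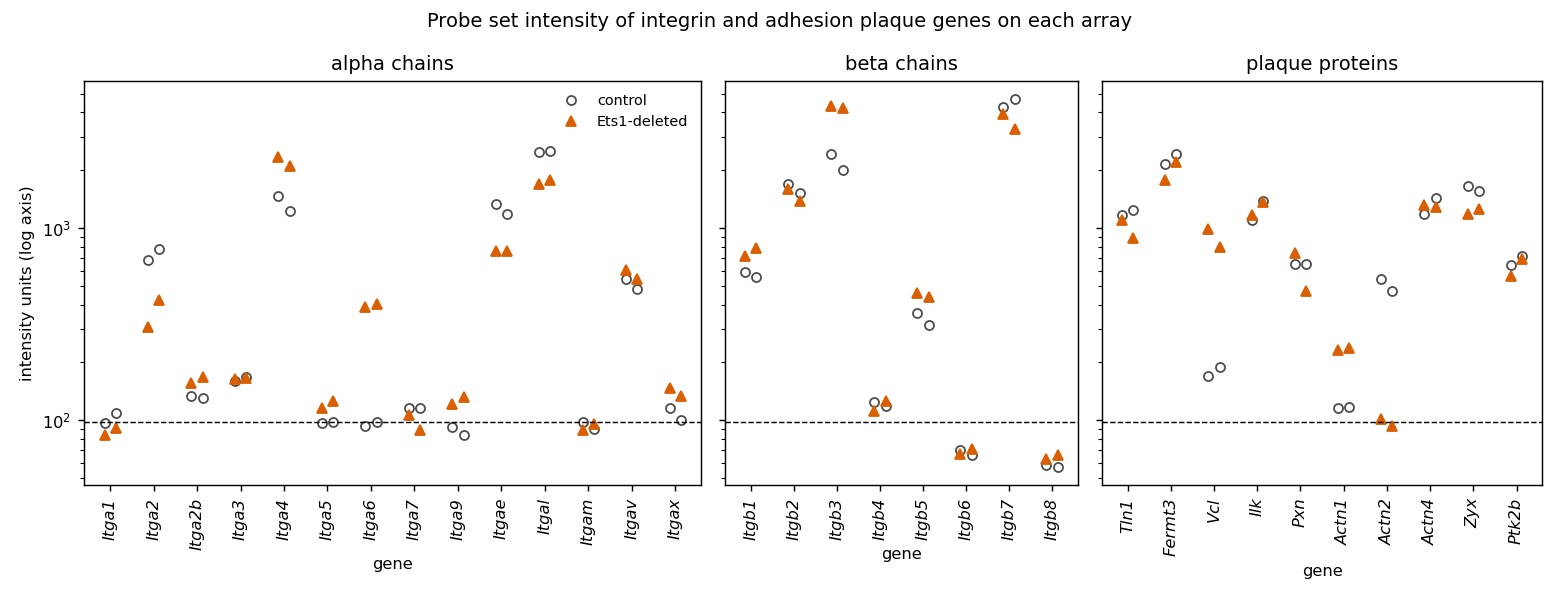
Probe set intensity of the 32 members with a probe set, by gene (horizontal axis) on each array (vertical axis, intensity units, log axis); open circles are the 2 control arrays, filled triangles the 2 Ets1-deleted arrays, and the dashed line is the limit of 97.4 intensity units. Vcl, Itga6 and Actn1 lie higher in the Ets1-deleted arrays and Actn2 and Itga2 lower, while Itga1, Itgam, Itgb6 and Itgb8 stay near or under the line.

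Among the alpha chains, 4 rose (Itga6, Itga4, Itga9 and Itgax), 3 fell (Itga2, Itgae and Itgal) and 5 did not pass. That is 58.3% called, against 26.7% of all tested genes. Itga6 and Itga9 reached the limit only through their Ets1-deleted values, so this share supports nothing by itself. Itga6 encodes a laminin receptor chain. Its control values were 93.8 and 97.8 intensity units, at the limit for testing, and its Ets1-deleted values 390.3 and 403, far above both. The difference was 2.05 ± 0.11 (limma, adjusted p = 7.26e-08), or 4.14-fold. With the floor of each array subtracted the same arrays gave 8.58-fold. The second Itga6 probe set went from 77.6 and 86.2 to 371 and 336. In bulk RNA of this kind, a change in the share of cells that carry a transcript and a change in its level per cell cannot be told apart.

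Itga4 encodes the alpha chain of VLA-4, which binds VCAM-1 and fibronectin, and of the gut homing integrin it forms with the Itgb7 chain. It stood at 1474 and 1224 intensity units in control cells and at 2340 and 2106 without Ets1, with no overlap. All 3 further bright probe sets of Itga4 were higher as well, by 0.79, 0.64 and 0.61, close to the 0.72 ± 0.12 of the brightest one (limma, adjusted p = 0.00100). The 1 remaining probe set was dim and read 86.7 to 98.4 on the 4 arrays. Itga9, whose chain also binds VCAM-1, was near the limit, with 92.2 and 84.3 intensity units in the controls and 121.7 and 131.5 in the Ets1-deleted arrays. It rose by 0.52 ± 0.11 (limma, adjusted p = 0.00458), and by 1.15 with the array floor subtracted. Of its 2 other probe sets, the one past the limit differed by 0.15 ± 0.11 and did not pass on its own.

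The collagen receptor gene Itga2 fell the most among the alpha chains. Control arrays had 679.8 and 781.9 intensity units and Ets1-deleted arrays 307 and 423, a difference of -1.02 ± 0.15 (limma, adjusted p = 0.000316). The Ets1-deleted arrays lay further apart than the controls did, and both were below both controls. Itgae encodes CD103, the chain that binds E-cadherin and holds lymphocytes in epithelia. Its brightest probe set read 1329 and 1184 in the controls and 762.7 and 761.6 in the Ets1-deleted arrays (-0.72 ± 0.11), and its second one 1337 and 1387 against 609 and 628 (-1.14 ± 0.11). Itgal, for the alpha chain of LFA-1, which binds ICAM proteins, read 2483 and 2526 in the controls and 1694 and 1780 in the Ets1-deleted arrays (-0.53 ± 0.11, limma, adjusted p = 0.00334). Its second probe set gave -0.40 ± 0.12.

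The remaining alpha chains moved less. Itgax, for the CD11c chain of myeloid cells, read 116 and 100.5 intensity units in the controls and 148.1 and 133.1 in the Ets1-deleted arrays. It rose by 0.38 ± 0.12 (limma, adjusted p = 0.0348), but the call was lost without control 2 (0.28), without Ets1-deleted 1 (0.30) or with no filter on dim genes, and its adjusted p in limma ran from 0.0186 to 0.284 over 12 alternatives. The CD11b gene Itgam, a myeloid and NK cell chain, read 98 and 90.5 in the controls and 89 and 95.2 in the Ets1-deleted arrays, with a mean under the limit. The fibronectin receptor gene Itga5 differed by 0.31 ± 0.11 (limma, adjusted p = 0.0558) and passed in 6 of 12 alternatives, where its adjusted p in limma ran from 0.0128 to 0.221. The platelet chain gene Itga2b differed by 0.29 ± 0.11, and passed with the array floor subtracted or with probe sets averaged. Over 12 alternatives its adjusted p in limma ran from 0.0249 to 0.273. Itgav, whose chain pairs with those of Itgb3 and Itgb5, differed by 0.16 ± 0.12, the laminin receptor gene Itga7 by -0.25 ± 0.12 and Itga3 by 0.02 ± 0.11.

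Of the 6 tested beta chains, 3 rose (Itgb3, Itgb5 and Itgb1) and 0 fell in limma (50% called, against 26.7% of all tested genes). The 1 lower beta chain gene with an unadjusted p under 0.05 was Itgb7. Itgb3 encodes the chain of the vitronectin and fibrinogen receptors. Its level was 2441 and 2006 intensity units in the controls against 4316 and 4204 without Ets1, so both deleted arrays lay well above both controls. It rose by 0.94 ± 0.12 (limma, adjusted p = 0.000114), while its second, dimmer probe set differed by 0.29 ± 0.11 and did not pass on its own. Itgb5, for a vitronectin receptor chain, read 359.8 and 312 in the controls and 459 and 439.9 in the Ets1-deleted arrays (0.42 ± 0.12, limma, adjusted p = 0.0179). The 3 other bright probe sets of Itgb5 gave 0.48, 0.34 and 0.29, the last of which did not pass on its own. The Itgb5 call was lost without control 2 (0.32) or Ets1-deleted 1 (0.39), and its adjusted p in limma ran from 0.0119 to 0.190 over 13 alternatives.

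Itgb1, the common beta chain gene that serves the chains of Itga2, Itga4, Itga5, Itga6 and Itga9, read 592.6 and 554 intensity units in the controls and 712.6 and 791.7 in the Ets1-deleted arrays. It rose by 0.39 ± 0.11 (limma, adjusted p = 0.0242), and its second bright probe set by 0.54 ± 0.14. The call was lost without control 2 (0.34), without Ets1-deleted 2 (0.31), with the array floor subtracted (0.43) and with the mean over its 6 probe sets (0.21), 4 of which were dim. Over 13 alternatives the adjusted p of Itgb1 in limma ran from 0.0198 to 0.154. Itgb7, the partner of Itgae and Itga4, read 4262 and 4680 in the controls and 3916 and 3272 in the Ets1-deleted arrays. It differed by -0.32 ± 0.12 (limma, adjusted p = 0.0774) with no overlap between the groups, and passed without Ets1-deleted 1 (-0.45), its adjusted p in limma running from 0.0262 to 0.357 over 13 alternatives. The leukocyte chain gene Itgb2, partner of Itgal, Itgam and Itgax, differed by -0.10 ± 0.12, with the groups overlapping. Itgb4, the hemidesmosome chain and second partner of Itga6, read 111.6 to 125.7 on the 4 arrays.

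The differences of known partner chains are given side by side. For VLA-4 both genes rose, Itga4 by 0.72 and Itgb1 by 0.39, and for the laminin receptor of lymphocytes Itga6 rose by 2.05 beside the same Itgb1. The CD103 integrin had Itgae at -0.72 and Itgb7 at -0.32, and LFA-1 had Itgal at -0.53 and Itgb2 at -0.10. Neither Itgb7 nor Itgb2 passed. In the gut homing integrin the signs were opposite, with Itga4 at 0.72 and Itgb7 at -0.32. In the vitronectin receptor the beta chain gene Itgb3 rose by 0.94 while Itgav differed by 0.16. The collagen receptor combined a fall of Itga2 (-1.02) with the rise of Itgb1. Differences between the chains of a pair were not tested, and the receptors on the cell surface were not measured.

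**Figure D2:**
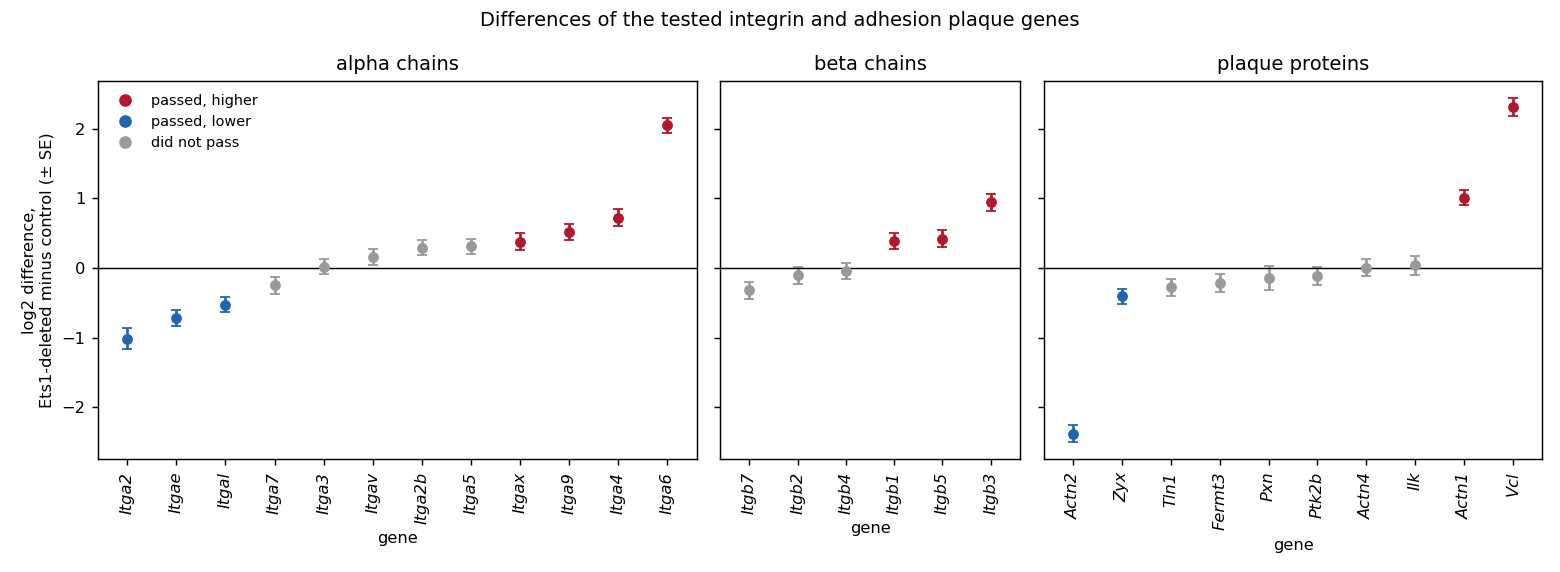
Log2 difference, Ets1-deleted minus control (vertical axis, points, with bars of 1 SE from limma), of the 28 tested members, ordered by size within alpha chains, beta chains and plaque proteins; red passed as higher, blue passed as lower, grey did not pass. Among plaque proteins Vcl (2.31) and Actn2 (-2.37) lie far from the rest.

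Among the 10 plaque protein genes measured, 2 rose (Vcl and Actn1), 2 fell (Actn2 and Zyx) and 6 did not pass. That is 40% called, against 26.7% of all tested genes. Vcl encodes vinculin, which binds talin and actin and strengthens adhesions under load. In control cells it stood at 170.6 and 188.7 intensity units, and without Ets1 at 990.1 and 797. Its second probe set read 182.7 and 178.9 in the controls and 838.6 and 803.8 in the Ets1-deleted arrays, so both sets separated the groups by a wide margin. The rise was 2.31 ± 0.13 (limma, adjusted p = 1.15e-07), or 4.95-fold, rank 43 by size among the 1512 genes that rose.

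The alpha-actinin genes, whose proteins cross-link actin filaments and bind integrin tails, went in different directions. Actn1 read 116.1 and 116.9 intensity units in the controls and 232 and 238.2 in the Ets1-deleted arrays. It rose by 1.01 ± 0.11 (limma, adjusted p = 2.37e-05), and its 2 other probe sets by 1.07 and 0.62. Actn2, known as the actinin of striated muscle, read 544.6 and 470.6 in the controls and 101.8 and 93.6 in the Ets1-deleted arrays, where it came down to the intensity limit. It fell by 2.37 on the log2 scale (SE 0.12, limma, adjusted p = 5.07e-08), or 5.19-fold, rank 4 among the 1388 genes that fell. With the array floor subtracted the Actn2 fall was 10.9-fold. Actn2 has only 1 probe set. Actn4, for the broadly expressed actinin, read between 1190 and 1434 on the 4 arrays and differed by 0.00376 ± 0.12.

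The promoter windows of these genes are shown because Vcl and Actn1 rose and Actn2 fell most among the plaque genes. Each runs from 250 bases before to 50 after the annotated start, from RefSeq (GRCm38.p6), and 23 of the 33 members had such a window. Capitals mark matches on either strand. The motifs searched were CCGGAA, then the motif CAGGAA and also the motif GAGGAA, which share the core that ETS proteins bind. The other motifs were TGTGGT, known for RUNX proteins, and the CArG box of serum response factor. No place can match more than 1 of the 3 GGAA motifs on a strand.
Vcl, chr14:20929148-20929447, plus strand: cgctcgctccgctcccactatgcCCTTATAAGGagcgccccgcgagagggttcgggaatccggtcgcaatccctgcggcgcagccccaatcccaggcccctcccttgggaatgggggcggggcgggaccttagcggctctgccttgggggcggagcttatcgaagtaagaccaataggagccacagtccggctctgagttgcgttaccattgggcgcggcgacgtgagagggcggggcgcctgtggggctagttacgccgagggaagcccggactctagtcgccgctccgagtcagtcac
Actn1, chr12:80260314-80260613, minus strand: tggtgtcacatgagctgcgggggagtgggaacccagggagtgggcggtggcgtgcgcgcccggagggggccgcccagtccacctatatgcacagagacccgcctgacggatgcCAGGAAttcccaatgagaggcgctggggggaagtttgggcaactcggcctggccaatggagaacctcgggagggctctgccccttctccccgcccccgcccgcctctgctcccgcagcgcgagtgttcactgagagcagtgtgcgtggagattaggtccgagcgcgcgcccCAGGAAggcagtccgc
Actn2, chr13:12340683-12340982, minus strand: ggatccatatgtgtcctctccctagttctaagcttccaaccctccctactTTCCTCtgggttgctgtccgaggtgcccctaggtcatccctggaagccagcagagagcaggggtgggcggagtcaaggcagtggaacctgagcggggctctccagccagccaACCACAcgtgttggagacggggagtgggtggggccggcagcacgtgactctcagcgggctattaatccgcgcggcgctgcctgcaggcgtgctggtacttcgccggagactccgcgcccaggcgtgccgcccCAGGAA

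The Vcl window held 1 CArG box, 227 bases before the start, and no match to the other 4 motifs. Of all 32851 windows of this length, 1.63% held a CArG box, and of the 26 windows of members 2 did. The other was a window of Itgb6, a gene under the intensity limit, with the same letters 50 bases before the start. In the Actn1 window CAGGAA stood 137 bases before and 34 bases after the start. The Actn2 window held GAGGAA on the reverse strand 200 bases before the start, TGTGGT on the reverse strand 88 bases before it, and CAGGAA 44 bases after it. CAGGAA occurred in 30.6% of all windows, GAGGAA in 28.3%, TGTGGT in 16.8% and CCGGAA in 14.9%. At least 1 of the 3 GGAA motifs occurred in 57.6% of all windows, in 18 of the 26 windows of members and in 5 of the 10 windows of members that rose or fell. Itga6, Itgae, Itgal and Itgb3, which also rose or fell, had no window. A match is a description of the letters, and no binding was measured.

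Zyx encodes zyxin, a late component of mature adhesions. The second, dimmer Zyx probe set differed by -0.24 ± 0.12 and did not pass on its own. On the brightest one, control arrays had 1659 and 1561 intensity units against 1179 and 1254 without Ets1. That was a fall of 0.40 on the log2 scale (SE 0.11, limma, adjusted p = 0.0175). The call was lost without control 1 (-0.36), without Ets1-deleted 1 (-0.36) or with the array floor subtracted (-0.42), and its adjusted p in limma ran from 0.0130 to 0.124 over 13 alternatives. Neither gene for the core proteins that switch integrins on passed by its brightest probe set. Tln1, for talin, read 1168 and 1239 in the controls and 1108 and 889.9 in the Ets1-deleted arrays (-0.28 ± 0.13), and passed only without Ets1-deleted 1 (-0.44; adjusted p in limma from 0.0287 to 0.581 over 13 alternatives). Fermt3, for the blood cell kindlin, differed by -0.21 ± 0.13.

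Ilk, for a pseudokinase that joins the beta chain to parvin, differed by 0.04 ± 0.14, and the kinase gene Ptk2b (PYK2) by -0.12 ± 0.13, with overlapping groups in both. A second Ptk2b probe set went the other way, by 0.37 ± 0.12. Paxillin, a scaffold encoded by Pxn, had Ets1-deleted arrays that lay on either side of the controls, at 739 and 469 intensity units against 654.6 and 647.8. Pxn differed by -0.15 ± 0.17. Without Ets1-deleted 1 it was -0.47 and passed, and without Ets1-deleted 2 it was 0.18 and did not (limma, adjusted p from 0.0174 to 0.747 over 13 alternatives).

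The probe sets of a gene test other stretches of its transcripts on the same arrays, so they are not replicates. The 32 genes had 73 probe sets, and besides the brightest 28 more reached the limit. In the called members, 16 of 16 further bright probe sets had the sign of the brightest, and 12 of the 16 passed in the fit over probe sets. In members that did not pass, 7 of 12 had the opposite sign, and 2 of these 12 passed, 1 for Tln1 (-0.50) and 1 for Ptk2b (0.37). Members were sorted by their call on the same arrays, so these sign counts are in part fixed by that choice. They do not support the calls, and the matching shares over all genes were not computed. The brightest probe sets of Itga3, Itga5, Itgae and Pxn (_s_at) and of Itgb5 (_x_at) carry the array maker's marks for probes that can match more than 1 transcript.

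**Figure D3:**
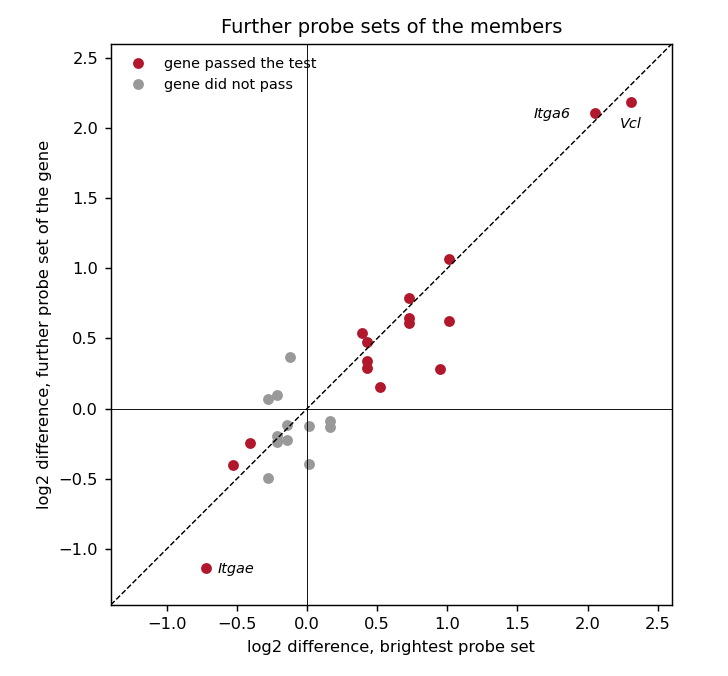
Log2 difference, Ets1-deleted minus control, of each of the 28 further bright probe sets (vertical axis) against that of the brightest probe set of the same gene (horizontal axis); red points are genes that passed the test, grey points genes that did not, and the dashed line marks equal values. The 16 red points lie in the 2 quadrants of equal sign, and 7 of the 12 grey points do not.

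Other genes of the adhesion pathway were taken from a list of 81, of which 65 were tested. In that list 10 rose, 16 fell and 39 did not pass (40.0% called, where the share of all tested genes was 26.7%), with a median of -0.12. Genes that act on Rap1, the small GTPase that recruits talin to integrins, were among them. Rasgrp2, for the exchange factor that loads Rap1, read 265.6 and 322.5 intensity units in the controls and 154.7 and 140.7 in the Ets1-deleted arrays, a fall of 0.99 on the log2 scale (SE 0.13, limma, adjusted p = 9.41e-05). Sipa1, for a Rap1 inactivator, also fell (-0.52), and Rap1b rose by 0.38, while Rap1a differed by -0.16 ± 0.15. The adaptor genes Fyb (ADAP) and Skap1, whose proteins link receptor signals to integrin activation, fell by 0.60 and 0.42. Stk4 (-0.47), for the kinase MST1, and Cyth1 (-0.51), for an exchange factor that binds the Itgb2 tail, fell too. Rassf5, whose protein joins Rap1 to LFA-1, differed by 0.05 ± 0.11, and the talin recruiter gene Apbb1ip by 0.08 ± 0.13. Sharpin, for an inhibitor that binds integrin alpha chains, fell by 0.47.

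Kinase and scaffold genes downstream of integrins went both ways. Src (-0.55), Fyn (-0.53) and their inhibitor Csk (-0.47) fell together with the adaptor gene Dok1 (-0.61), while Syk rose by 0.65 and Bcar1, for the scaffold p130Cas, by 0.58. Dock2 and Rac2, for the lymphocyte Rac activator and a Rac GTPase, fell by 0.38 and 0.40. Arhgef7 (0.45), for a paxillin-linked exchange factor, and Cytip (0.37), for a partner of cytohesin, rose. Of genes for actin-linked proteins, Palld, for palladin, rose by 1.19 ± 0.12, from 128 and 115.3 intensity units to 301 and 257. Pdlim1 (0.52), Ezr (0.47) and Parvg (0.33), for a LIM protein that binds alpha-actinin, for ezrin and for the blood cell parvin, rose as well, and filamin A (Flna), which binds beta chain tails, fell by 0.41. The tetraspanin genes, whose proteins assemble with integrins in the membrane, split: Cd9 rose by 1.31 ± 0.11, Cd82 and Cd81 fell by 0.94 and 0.64, and Cd151 differed by -0.09 ± 0.13.

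Of 38 genes for proteins that integrins bind, 20 were tested, of which 4 rose, 3 fell and 13 did not pass (35.0% called, where the share of all tested genes was 26.7%; median -0.0066). Vcam1, Lamb2 and Col4a1 reached the limit only through their control values. The laminin genes Lama5 (1.21 ± 0.11) and Lamc1 (0.57 ± 0.14) rose. Lama5 went from 111.6 and 112.9 intensity units to 245 and 274.6. Cdh1, for the E-cadherin that CD103 binds, rose by 0.96 ± 0.14, and its controls read 120.4 and 87.3 against 195.5 and 204.7 in the Ets1-deleted arrays. Tgfb1, whose latent protein is released by integrins with the Itgav chain, rose by 0.74 ± 0.11. Icam1 and Vcam1, for ligands of LFA-1 and VLA-4, fell by 0.38 and 0.34, Vcam1 from 122.5 and 116.9 to 92.5 and 96.8. Adam15 fell by 0.65, and fibronectin (Fn1) differed by -0.26 ± 0.11.

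**Figure D4:**
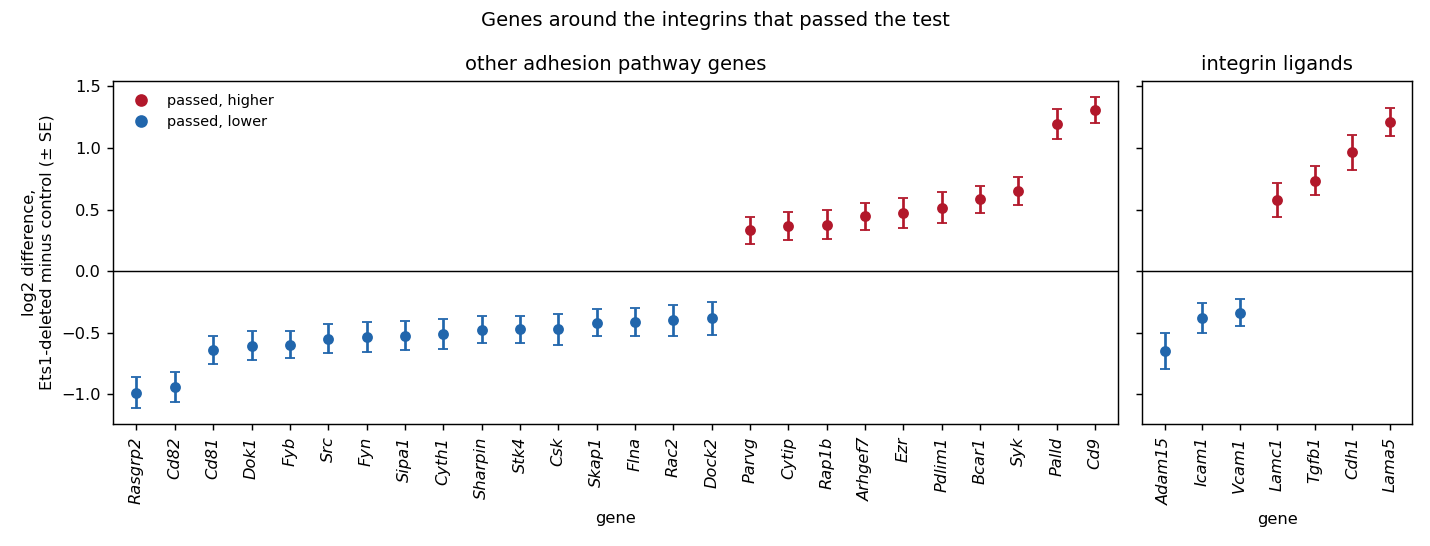
Log2 difference, Ets1-deleted minus control (vertical axis, points, with bars of 1 SE from limma), of the 26 other adhesion pathway genes and the 7 integrin ligand genes that passed the test, by gene (horizontal axis). Cd9 (1.31), Lama5 (1.21) and Palld (1.19) are the highest points and Rasgrp2 (-0.99) the lowest.

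Markers of other cells that carry these integrins moved in part with the members. The share of all tested genes that rose was 13.9%, and 12.8% fell. For platelets, known for Itga2b and Itgb3, 8 of the 11 markers on the array stayed under the limit on every array. Among these untested ones, Gp1bb (-0.16) and Gp6 (-0.05) were lower, and Gp5 (0.12), Selp (0.24) and Ppbp (0.54) higher. Of the 11, dim ones included, 6 lay higher on both Ets1-deleted arrays than on both controls, and 2 lower. Among the 3 tested the groups did not overlap in 2, where the share was 62.6% among all tested genes. The summed level of the 11 was 934 to 954 intensity units in the controls and 1134 to 1186 in the Ets1-deleted arrays. Of the 3 tested, Pf4 (0.93) and F2rl2 (0.62) rose and Gp9 differed by -0.02. For stroma, which is rich in Vcl, Actn1, Itgav and Itgb5, the summed level of 20 markers was 4713 to 4809 in the controls and 4901 to 4928 in the Ets1-deleted arrays. That sum includes Timp3, which read 126.4 and 151.7 in the controls and 878.7 and 750.6 in the Ets1-deleted arrays. Of the 20 markers, 10 lay lower on both Ets1-deleted arrays than on both controls, and 3 higher. Those counts include untested dim markers. Among the 15 tested stroma markers the groups did not overlap in 12, where the share was 62.6% among all tested genes. Of 15 tested, Timp3 (2.55) and Lox (0.65) rose, Pdgfrb (-0.85) and Cxcl12 (-0.41) fell, and Col1a1 differed by -0.29 ± 0.11.

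Against 13.9% of all tested genes that rose, 11 of the 17 myeloid markers on the array were tested and all 11 rose. Ctsg (1.51), Fcgr3 (1.18), S100a9 (1.14) and Csf1r (1.01) were among them, while Cd14 read at most 86.6 on any array. Their sums were 3082 to 3403 intensity units in the controls and 5633 to 5897 in the Ets1-deleted arrays, and the 4 arrays of Itgam had a mean under the limit. Of 15 mast cell and basophil markers, 11 were tested and 9 rose. Cpa3 rose the most, by 4.07 ± 0.12, from 85.9 and 78.3 intensity units to 1497 and 1261, followed by Cd200r3 (1.82) and Mcpt2 (1.39), while Fcer1a read at most 66.4 on any array. The basophil protease gene Mcpt8, the brightest of the list in the controls, went the other way, from 1337 and 1385 to 1097 and 1193. It differed by -0.25 ± 0.11 and did not pass. The sums over these 15 genes, Cpa3 and Mcpt8 included, were 2793 to 2809 against 4648 to 4878.

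For the next 2 lists, too, the share of all tested genes was 13.9% higher and 12.8% lower. Among 12 NK cell markers, 6 were tested, of which 3 rose and 3 did not pass. Klrc1 (2.09), Xcl1 (1.10) and Gzma (0.59) rose, and Ncr1 and Eomes read at most 78.5. The sums over the 12 genes were 11076 to 11985 in the controls and 13741 to 15641 in the Ets1-deleted arrays. Most of each sum came from Gzma (4604 and 4418 against 7290 and 6285) and Gzmb (5919 and 5233 against 6558 and 5750). Gzmb differed by 0.14 ± 0.12 and did not pass. Of 13 T cell markers 8 were tested, of which 4 rose and 2 fell, and the sums were 3914 to 4059 against 6705 to 7023. The CD3 complex genes rose, Cd3e by 3.28 ± 0.14 (9.74-fold), Cd247 by 3.11 ± 0.12, Cd3d by 2.58 ± 0.11 and Cd3g by 0.50 ± 0.11. Zap70 (-1.13) and Ubash3a (-0.72) fell, and Cd4 and Cd8a stayed dim. Some markers reached the limit for testing only through their Ets1-deleted values, 1 myeloid (Adgre1), 5 mast cell and basophil (Cpa3, Tpsb2, Hdc, Mitf and Cd200r3), 2 NK cell (Xcl1 and Klrc1) and 2 T cell markers (Cd3e and Cd6). Counts of risen among tested markers therefore lean towards rises. The part of these cells in the integrin and plaque results was not tested.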

How the data were processed

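RNA of 4 samples was amplified, labelled with biotin and hybridised to Affymetrix arrays, per the labels' protocols. The authors deposited probe set intensity values from RMA, per the submitters' processing notes. RMA subtracts background, makes array distributions equal and summarises probes. Its version was not given in the sources used here. Their scale was read as linear from the values and turned into log2. RMA values level off near the dim end, which understates folds of dim genes.

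Genes were named through the platform annotation (45101 probe sets, 34958 with 1 symbol), with the brightest probe set per gene by mean log2 value. Of 18194 genes, 10873 had a mean of at least 97.4 intensity units (50th percentile) and were tested. Genes were fitted with limma 3.58.1 (lmFit, eBayes) in R 4.3.3, two-sided, with Benjamini-Hochberg adjustment and a threshold of 0.05, with 2 residual and 9.75 prior degrees of freedom. The code was tested on simulated data. Members, lists, motifs and alternatives were chosen with earlier results of these data known. The rule was to name all members, Ets1, and adhesion pathway and ligand genes past the threshold. It also covered those short of it whose protein directly binds a member, and markers that define a cell type. Of the genes short of the threshold only some were named, so they are not a complete set. Lims1 (-0.33), Git2 (-0.34) and Pip5k1c (0.21), for example, were tested, did not pass and were not described. Further markers, and ligand genes that reached the limit through 1 group only, were named after their values were seen. Alternatives changed normalization, array floor (5th percentile of each array subtracted, results kept at 16 or more), filter, probe set rule, variance model, replicate block, fold limit and the arrays used.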

Additional observations from a re-analysis of the deposited data

How the results depend on the processing

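With a limit of 1.5-fold added, 1349 genes were called in place of 2900, with 5 members higher and 3 lower in place of 9 and 5, 8 adhesion pathway genes in place of 26 and 4 ligand genes in place of 7; fewer pass by construction. Every other alternative kept these counts within 1.5 times. With 1 array left out, members called higher numbered 6 to 9 and lower 4 to 7, all genes 2238 to 2736, pathway genes 18 to 23 and ligand genes 5 to 6; the lone array of a group is then assumed to vary like the other group. Itga2, Itga4, Itga6, Itga9, Itgae, Itgal, Itgb3, Vcl, Actn1 and Actn2 passed in all 12 alternatives other than the fold limit and the stricter filter; under the stricter filter on dim genes (70th percentile) Itga9, Itgax and Actn1 were not tested.

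Some members that had not passed changed sign. With the mean over probe sets Itga3 was -0.17, Itgav -0.039 and Ptk2b 0.12, and with a repeated quantile normalization Actn4 was -0.017. With 1 array left out the ranges were -0.016 to 0.048 for Itga3, -0.21 to 0.0052 for Itgb2, -0.13 to 0.046 for Itgb4, -0.13 to 0.20 for Ilk, -0.47 to 0.18 for Pxn, -0.13 to 0.14 for Actn4 and -0.27 to 0.035 for Ptk2b. The cause was not tested.

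The labels do not say whether arrays with the same replicate number share anything beyond it. The replicate difference correlated between the groups with r = 0.17 across 10873 genes, which are not independent replicates. A replicate block gave 3252 called genes, with 10 members higher and 5 lower; it added Itga5 and removed no member. Signal near the floor limits what can be said of Itga1, Itgam, Itgb6 and Itgb8, and of the size of change in Itga6, Itga9 and Actn2.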
